A study of Bos taurus with 8 samples.

Results

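Fibro-adipogenic progenitors (FAPs) were compared with satellite cells (SCs) within bovine muscle cultures that had been sorted for SCs and grown to passage 5. The cells were those of donors 5, 6 and 10 in the passage 5 library, each with the authors' label of FAP or SC. There were 694 FAPs and 3016 SCs, together 3710 of the 10405 cells of that library and of 36129 cells in the series. No cell of the library carried any other label. Raw counts of unique molecular identifiers (UMIs) were added up over the cells of each type in each donor, which gave 3 FAP and 3 SC pseudobulks, paired by donor. The comparison addresses what the cells are that come to outnumber SCs in such cultures.

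All donors were Belgian Blue cattle, and the cells came from the semitendinosus muscle. The SC cultures were of a female calf (donor 5), a male adult (donor 6) and a male calf (donor 10), in serum-free growth medium. Coatings are those of the paper's culture methods, which name laminin for SCs. In its coating experiment collagen I was the control, and the coating of the sequenced SC cultures is not given separately. FAP cultures of donors 4, 7 and 8 (female calf, female calf, male adult) grew on collagen I. Unsorted cultures of donors 1, 2 and 9 (female adult, female calf, female adult) grew on fibronectin in the same medium. The 9 donors were pooled into 1 Chromium 3′ library and separated afterwards by genotype. A comparison between culture kinds is thus also one between donors and, by the culture methods, coatings, which cannot be told apart. Within SC cultures, each FAP sum and SC sum of a donor shared the vessel, the medium and the library. Donors are given in the orders 5, 6 and 10, then 4, 7 and 8, then 1, 2 and 9 throughout, and levels are in CPM, the UMIs of a gene per 1000000 UMIs of its pseudobulk.

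SCs are the stem cells of skeletal muscle. They lie beneath the basal lamina of the fibre, carry the transcription factor PAX7, and on activation switch on MYF5 and MYOD1, then MYOG, before they fuse into myotubes. FAPs are mesenchymal cells of the interstitium. They carry PDGFRA, lay down collagens and proteoglycans, secrete cytokines, and give rise to fibroblasts and adipocytes but not to muscle fibres.

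FAPs made up a small share of the SC cultures at passage 2 and most of the cells at passage 8. At passage 2 they were 1.66%, 0.641% and 1.09% of the cells of the 3 donors. At passage 5 the share was 56.96% in donor 5 (exact 95% interval 53.9 to 59.997%), 2.04% in donor 6 (1.39 to 2.88%) and 6.103% in donor 10 (4.79 to 7.65%). Intervals cover counting error only. By the annotation the passage 5 cultures had thus reached very different FAP shares, and their mean of 21.7% ± 30.6 (SD, n = 3) rests on donor 5. Under an 8-gene typing of cells, described below, the passage 5 shares were 87.4, 89.7 and 75.3%, as most SCs were typed as FAPs. At passage 8 the annotated shares were 96.7%, 95.6% and 82.7%. From passage 2 to 8 the share rose in 3 of 3 donors by 90.5 ± 7.72 percentage points (SD), and the exact 2-sided sign-flip test gave p = 0.25, the smallest that 3 donors allow. Each passage was a single library. In bulk sums, a lower level in a few cells and in all cells alike cannot be told apart, so shares of cells with a UMI are given for key genes.

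**Figure D1:**
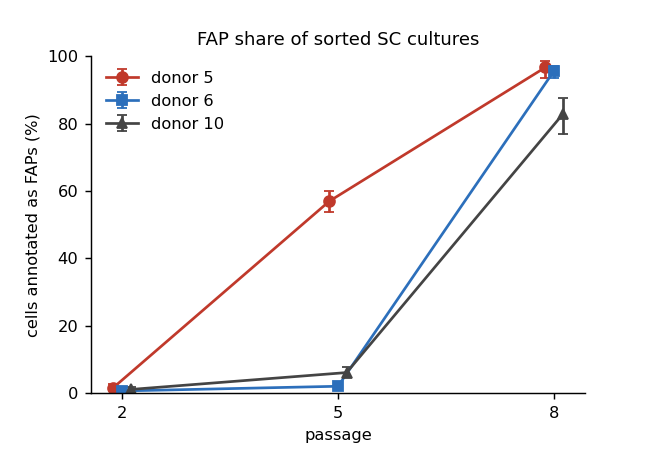
Share of cells annotated as FAPs (%, y axis) in SC cultures against passage (x axis), 1 line per donor, with exact 95% binomial intervals. At passage 5 donor 5 stood at 57.0% while donors 6 and 10 stood at 2.04% and 6.10%, and all 3 lay above 82% at passage 8.

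The FAP sums held 593, 31 and 70 cells and the SC sums 448, 1491 and 1077. Totals ran from 885831 UMIs (FAPs of donor 6, where 1 UMI is about 1.13 CPM) to 31637636 UMIs (SCs of donor 6). FAPs carried more UMIs per cell, with medians of 27498, 27830 and 33052 against 22708, 20155 and 22513 in SCs. Genes detected followed, with medians of 4704, 5002 and 5072 against 4270.5, 4088 and 4239. After every cell was thinned to 5000 UMIs the medians were 1867, 1944 and 1928 genes in FAPs and 1814, 1854 and 1828 in SCs. The direction was the same in 3 of 3 donors for each measure (exact sign-flip p = 0.25 each, the smallest possible). Median mitochondrial percent was 4.23, 3.82 and 4.06 in FAPs and 4.26, 3.83 and 4.496 in SCs. In the library, 26 of the 3710 cells (0.701%) shared a barcode with a cell of another library.

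The labels were first set against the marker genes. The cell types had been assigned from these same expression values, so p-values below are no independent evidence of the types. They set the fold against variation among the 3 donors, moderated across genes. PAX7 had no UMI in any FAP pseudobulk and stood at 5.296, 5.03 and 3.12 CPM in SCs. With 294 UMIs in SCs and a floor of 3 UMIs over all FAPs, it was at least 27.9-fold lower in FAPs by the annotation. This bound pools the donors, and 16198981 of the 19263539 FAP UMIs were of donor 5. Donors 6 and 10 had 885831 and 2178727 FAP UMIs, too few to give such a bound on their own. When cells were typed by 8 genes, a rule given below under which most SCs became FAPs, its log2FC turned to 0.15. MYF5, a myogenic determination factor, was at 1.23, 16.9 and 5.51 CPM in FAPs and 139.7, 167 and 195 CPM in SCs (log2FC -5.58 ± 0.83, adjusted p = 0.0392). MYOD1, which commits cells to the muscle lineage, was at 1.48, 11.3 and 7.803 CPM in FAPs and 103, 109.9 and 143 CPM in SCs (log2FC -5.05 ± 0.64, adjusted p = 0.0194). For these genes every SC value lay above every FAP value, and among FAPs those of donor 6 were highest for MYF5 and MYOD1.

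DES, the muscle intermediate filament, was at 6.85, 13.5 and 6.88 CPM in FAPs and 520.2, 164 and 354 CPM in SCs (log2FC -5.78 ± 0.57, adjusted p = 0.0109). NCAM1, an adhesion molecule of myogenic cells, was at 0.988, 12.4 and 3.21 CPM in FAPs and 174, 149 and 194 CPM in SCs (log2FC -6.33 ± 0.87, adjusted p = 0.03303). CHRNA1, the alpha subunit of the muscle acetylcholine receptor, was at 0.864, 4.52 and 2.29 CPM in FAPs and 69.7, 46.2 and 71.8 CPM in SCs (log2FC -5.70 ± 0.37, adjusted p = 1.17e-05). Groups did not overlap for any of them. The calls were lost without donor 10 for MYF5 (log2FC -5.69, adjusted p = 0.334, with 6.58e-08 to 0.886 over its alternatives), DES (log2FC -5.74, adjusted p = 0.206, with 6.99e-12 to 0.206 over its alternatives) and NCAM1 (log2FC -6.40, adjusted p = 0.317, with 3.84e-08 to 0.317 over its alternatives). ITGA7, the laminin-binding integrin of SCs used in the sort, stood at 5.43, 46.3 and 16.5 CPM in FAPs and 287, 207 and 321 CPM in SCs. Its groups did not overlap either, but it missed the threshold (log2FC -4.39 ± 1.02, adjusted p = 0.0915), and without donor 6 it passed (log2FC -5.18, adjusted p = 0.00676, with 2.52e-05 to 0.446 over its alternatives). CDH15, the M-cadherin of myogenic cells, was near 0 in FAPs (0.123, 0 and 0 CPM) and at 5.49, 5.44 and 6.04 CPM in SCs.

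The low SC signal in FAPs was set beside that in FAPs of FAP cultures, which shared the library and grew beside 10, 5 and 5 SCs. MYF5 there stood at 5.38, 6.81 and 4.28 CPM, DES at 6.93, 6.77 and 5.58 CPM and ITGA7 at 5.02, 5.61 and 5.06 CPM. FAPs of donor 5 lay below this range for MYF5 and within it for DES and ITGA7. FAPs of donor 10 lay within it for MYF5 and DES and above it for ITGA7, at 16.5 CPM. FAPs of donor 6 exceeded it for all 3, at 16.9, 13.5 and 46.3 CPM. Of the 31 FAPs of donor 6, 4 carried more UMIs of ITGA7, MYF5, NCAM1 and DES than of PDGFRA and ITGA5, against 3 of 593 FAPs of donor 5 and 1 of 70 of donor 10. In cells thinned to 5000 UMIs, ITGA7 had a UMI in 3.73, 16.1 and 5.71% of FAPs and 64.6, 57.8 and 68.9% of SCs, against 2.75, 2.91 and 2.803% of FAPs in FAP cultures.

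FAP markers divided the types less cleanly than SC markers did. ITGA5, the fibronectin receptor subunit in the sort panel, was at 260.4, 294 and 436 CPM in FAPs and 24.4, 26.5 and 19.3 CPM in SCs (log2FC 3.74 ± 0.28, adjusted p = 0.00103), with no overlap. PDGFRA, the receptor that defines FAPs, was at 64.6, 104 and 50.03 CPM in FAPs and 25.6, 34.01 and 20.3 CPM in SCs (log2FC 1.35 ± 0.13, adjusted p = 8.69e-07). DCN, the proteoglycan decorin, was at 2101, 2846 and 2335 CPM in FAPs and 992, 1704 and 1229.9 CPM in SCs (log2FC 0.85 ± 0.10, adjusted p = 5.42e-06), under the fold threshold. FAP values lay above SC values in both genes, but DCN was abundant in SCs too. LUM, the proteoglycan lumican, was at 1110.3, 1261 and 1438 CPM in FAPs and 1050.5, 1053 and 986 CPM in SCs and did not pass (log2FC 0.23 ± 0.10, adjusted p = 0.0805). COL1A1 and COL3A1, the main fibrillar collagens, overlapped between types. THY1, a mesenchymal surface antigen, was at 71.8, 68.9 and 126 CPM in FAPs and 104, 91.2 and 43.8 CPM in SCs (log2FC 0.15 ± 0.64, adjusted p = 0.897). SCARA5, a scavenger receptor of interstitial FAPs, was at 1.61, 25.96 and 0 CPM in FAPs and 1.13, 1.23 and 1.03 CPM in SCs, high in donor 6 alone (log2FC 1.93 ± 1.49, adjusted p = 0.42003; log2FC 2.71, adjusted p = 2.26e-05, with 2.26e-05 to 0.983 over its alternatives without donor 10).

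**Figure D2:**
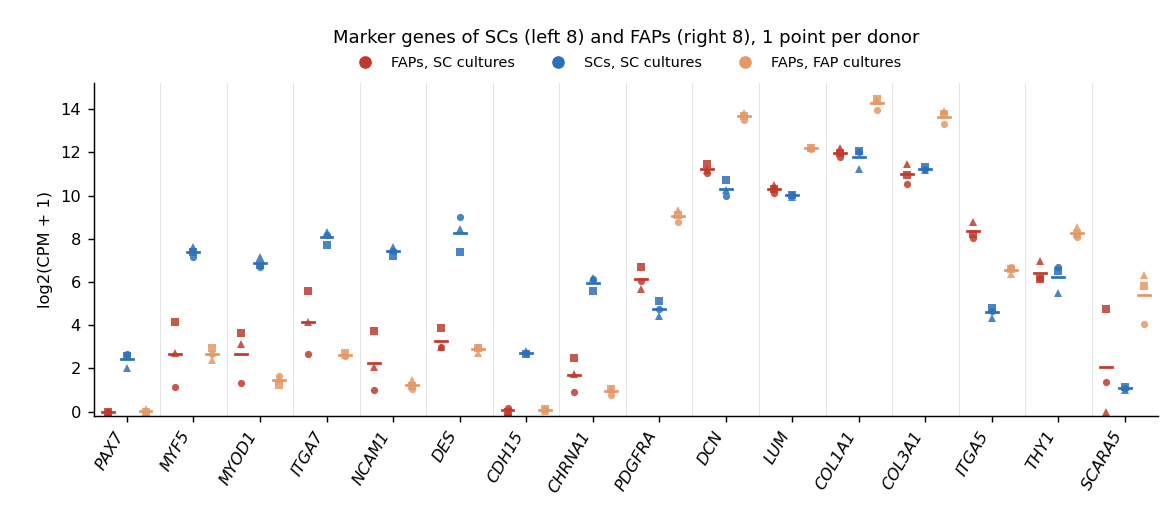
Level of the 8 SC and 8 FAP marker genes as log2(CPM + 1) (y axis), 1 point per donor pseudobulk (circle, square and triangle for donors 5, 6 and 10 or 4, 7 and 8) with a bar at the mean. All 8 SC markers lie lower in FAPs than in SCs of SC cultures, whereas LUM, COL1A1, COL3A1 and THY1 of both types lie close together and, with DCN, below the FAPs of FAP cultures.

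Typing cells by a few genes depended on which FAP genes were used. When each cell was typed by whether PDGFRA, DCN, LUM and ITGA5 or ITGA7, MYF5, NCAM1 and DES had more UMIs, 693 of 694 FAPs kept their type. Of the SCs, 312 of 448, 1321 of 1491 and 786 of 1077 were typed as FAPs. The median SC carried 15, 27 and 20 UMIs of DCN and 19, 17 and 17 of LUM, and 0 of PDGFRA and ITGA5. With DCN and LUM left out, a choice made after seeing this, 440 of 448, 1428 of 1491 and 1067 of 1077 SCs kept their label, and FAP shares were 56.9%, 3.89% and 6.32%. The annotation was kept as the main typing, and values under the 8-gene and 6-gene typings are given below where they end a call. Under the 8-gene typing the FAP sums of donors 6 and 10 held 1321 and 786 annotated SCs beside 31 and 69 annotated FAPs. A call lost there is thus no test of the contrast between annotated types. Under the 6-gene typing the FAP sum of donor 6 held 31 annotated SCs beside 27 annotated FAPs. Calls lost under that typing are thus no clean test of the contrast either.

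Across all genes, the 2 types were far apart. Of 11848 genes tested, 1087 (9.17%) were higher in FAPs and 1318 (11.1%) lower. These 2 shares are the background for the list counts of this comparison. A call needed a log2 fold change (log2FC) beyond 1 in either direction and a Benjamini-Hochberg adjusted p under 0.05 by edgeR. The median log2FC of all tested genes was -0.04. Of the 2405 called genes, 2302 moved the same way in every donor, 273 were more than 3 log2 units higher and 523 more than 3 lower. Under the 8-gene typing 29 calls of named genes were lost, and among the SC markers they included MYF5 (adjusted p = 0.886, and 0.0801 under the 6-gene typing) and CDH15, whose log2FC was -0.995. Over their alternatives the adjusted p of MYF5 and CDH15 ran from 2.78e-16 to 0.886.

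The 8 largest falls are given for genes that averaged at least 50 CPM in SCs and moved the same way in every donor. NEB, the thin-filament ruler nebulin, was at 0.741, 4.52 and 4.59 CPM in FAPs and 433, 194 and 353 CPM in SCs (log2FC -7.96 ± 0.82, adjusted p = 0.0176). ACTC1, cardiac alpha-actin, which myoblasts also make, was at 22.8, 32.7 and 19.3 CPM in FAPs and 1604, 1365 and 2132 CPM in SCs (log2FC -6.21 ± 0.28, adjusted p = 6.82e-05). TNNT2, cardiac troponin T, was at 2.04, 1.13 and 1.38 CPM in FAPs and 133, 90.6 and 167 CPM in SCs (log2FC -6.21 ± 0.20, adjusted p = 8.46e-12). Every SC value lay far above every FAP value in all 3. RBM24, an RNA-binding protein of muscle splicing, was at 0.432, 6.77 and 1.84 CPM in FAPs and 159, 115 and 182 CPM in SCs (log2FC -7.30 ± 0.79, adjusted p = 0.0159). ITIH5, a hyaluronan-binding protein, was at 2.28, 23.7 and 6.88 CPM in FAPs and 541, 699.6 and 597 CPM in SCs (log2FC -6.78 ± 0.80, adjusted p = 0.0259). CPE, a carboxypeptidase that processes peptide hormones, was at 2.47, 0 and 1.38 CPM in FAPs and 194, 55.6 and 53.5 CPM in SCs (log2FC -6.25 ± 0.23, adjusted p = 3.18e-11). These were again free of overlap. IL17B, a secreted interleukin, was at 0.926, 3.39 and 0.459 CPM in FAPs and 132, 30.2 and 84.2 CPM in SCs (log2FC -6.88 ± 0.45, adjusted p = 8.2e-05), and NCAM1, given above, completed the 8. Without donor 10, the calls of MYF5, NCAM1, DES, RBM24, ITIH5, CDKN1C, CCL2 and CXCL3 were lost, with adjusted p between 0.203 and 0.334 and the directions kept. Over all their alternatives the adjusted p of these 8 genes ran from 3.36e-36 to 0.886. Under the 6-gene typing RBM24 (adjusted p = 0.0685) and ITIH5 (adjusted p = 0.232) were not called, and under the 8-gene typing ITIH5 turned positive (log2FC 0.43).

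The 8 largest rises are given under the same limits, with at least 50 CPM on average in FAPs. RAMP3, an accessory protein of the adrenomedullin receptor, was at 54.6, 226 and 70.7 CPM in FAPs and 0.473, 4.08 and 0.434 CPM in SCs (log2FC 6.22 ± 0.28, adjusted p = 2.02e-06). CA4, a membrane-anchored carbonic anhydrase, was at 1204, 1859 and 1349 CPM in FAPs and 21.3, 63.4 and 31.9 CPM in SCs (log2FC 5.29 ± 0.25, adjusted p = 6.81e-05). ESM1, the proteoglycan endocan, was at 630.3, 437 and 397 CPM in FAPs and 20.9, 17.5 and 10.9 CPM in SCs (log2FC 4.85 ± 0.14, adjusted p = 4.12e-12). All 3 were free of overlap, and SCs of donor 6 were the highest SCs for RAMP3 and CA4. QPCT, glutaminyl cyclase, which modifies chemokine ends, was at 109, 115 and 128 CPM in FAPs and 3.405, 2.59 and 1.34 CPM in SCs (log2FC 5.61 ± 0.30, adjusted p = 3.49e-05). LGALS9, galectin-9, was at 80.3, 124 and 64.3 CPM in FAPs and 2.74, 2.78 and 2.605 CPM in SCs (log2FC 4.94 ± 0.18, adjusted p = 3.59e-11). BGN, the proteoglycan biglycan, was at 707, 488 and 809 CPM in FAPs and 26.7, 25.5 and 17.1 CPM in SCs (log2FC 4.79 ± 0.36, adjusted p = 0.00263). In all 3 genes every FAP value lay above every SC value. IL6, an acute-phase cytokine, was at 183, 291 and 48.7 CPM in FAPs and 1.23, 2.43 and 2.17 CPM in SCs (log2FC 6.10 ± 0.81, adjusted p = 0.03303), and CCL2, a monocyte chemoattractant, at 1826, 2117 and 1796 CPM in FAPs and 39.4, 174 and 42.3 CPM in SCs (log2FC 4.79 ± 0.72, adjusted p = 0.0443). The IL6 call was lost without donor 5 (log2FC 5.79, adjusted p = 0.1201, with 4.07e-219 to 0.1304 over its alternatives) or donor 6 (log2FC 5.59, adjusted p = 0.1304), and that of CCL2 without donor 5 (log2FC 4.42, adjusted p = 0.233, with 1.28e-14 to 0.316 over its alternatives) or donor 10 (log2FC 4.49, adjusted p = 0.316). CCL2 was not called with thinned sums either (adjusted p = 0.0541). Under the 8-gene typing BGN, IL6 and LGALS9 were not called, with adjusted p of 0.101, 0.0819 and 0.050006, and over the alternatives of the 3 genes it ran from 4.07e-219 to 0.1304.

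**Figure D3:**
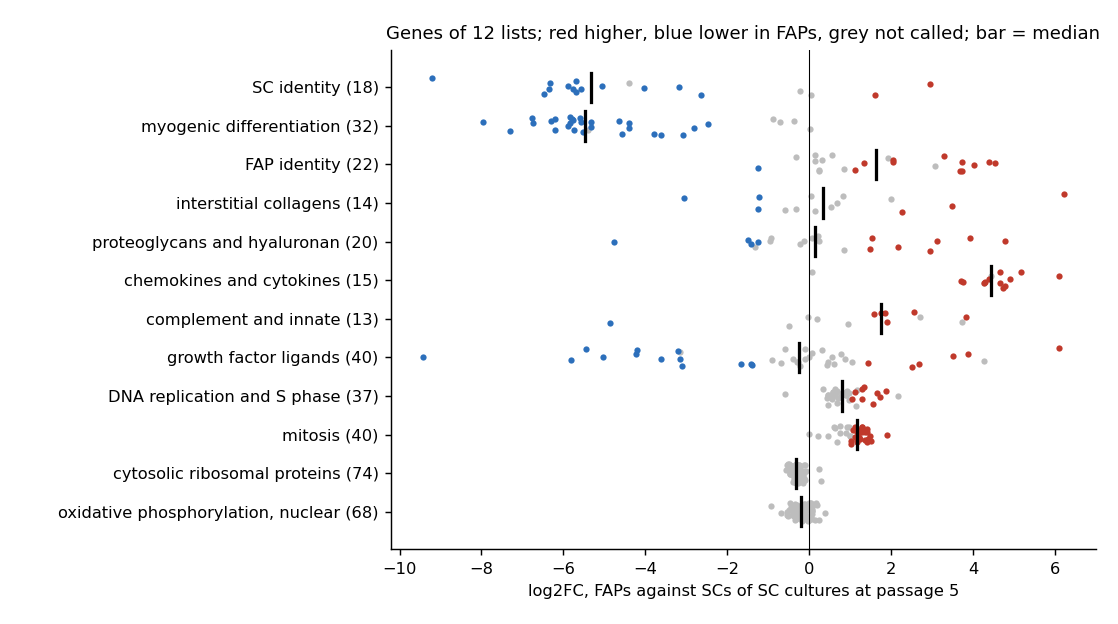
log2FC of FAPs against SCs (x axis) for each tested gene of 12 lists (y axis, number of tested genes in brackets), red where called higher, blue where called lower and grey where not called, with a bar at the list median. SC identity and myogenic differentiation lie near -5, chemokines and cytokines near 4.4, and ribosomal protein and oxidative phosphorylation genes close to 0.

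Most of the myogenic programme was lower in FAPs. Of the list of SC identity genes, 2 were called higher and 13 lower of 18 tested, with a median log2FC of -5.32. MET, the receptor of hepatocyte growth factor, was at 3.77, 5.64 and 1.84 CPM in FAPs and 29.1, 36.2 and 36.6 CPM in SCs (log2FC -3.18 ± 0.23, adjusted p = 6.07e-08), and FGFR4, a fibroblast growth factor receptor of myoblasts, at 1.11, 5.64 and 2.75 CPM in FAPs and 20.997, 63.6 and 38.5 CPM in SCs (log2FC -4.03 ± 0.22, adjusted p = 1.57e-09). Under the 8-gene typing neither was called (adjusted p = 0.153 for MET and 0.732 for FGFR4, 3.08e-51 to 0.732 over their alternatives), and of the list 7 of 18 were lower, with a median of -0.90. CAV1, the caveolae protein, was among those that rose, at 1055, 905 and 869 CPM in FAPs and 256, 341 and 292 CPM in SCs (log2FC 1.61 ± 0.14, adjusted p = 5.46e-06). In the differentiation list, 0 were called higher and 27 lower of 32 tested, with a median of -5.46. MYMK, the fusogen of myoblasts, was at 0.123, 3.39 and 0 CPM in FAPs and 31.4, 10.97 and 31.2 CPM in SCs (adjusted p = 0.00971, no fold given, with 5 UMIs in all FAPs), and MYH3, embryonic myosin, at 2.04, 2.26 and 0.918 CPM in FAPs and 117, 26.1 and 87.3 CPM in SCs (log2FC -5.83 ± 0.25, adjusted p = 2.45e-10). MYOG, the differentiation factor myogenin, was at 2.28, 16.9 and 2.75 CPM in FAPs and 179.5, 72.4 and 132 CPM in SCs, without overlap, and missed the threshold (log2FC -5.41 ± 1.07, adjusted p = 0.0699) unless donor 6 was left out (log2FC -6.17, adjusted p = 1.22e-09, with 1.22e-09 to 0.4098 over its alternatives).

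CDKN1C, the cell cycle inhibitor p57 that accompanies myogenic exit from the cycle, was at 5.68, 25.96 and 15.6 CPM in FAPs and 575, 439 and 636 CPM in SCs (log2FC -5.74 ± 0.69, adjusted p = 0.0257). Its groups did not overlap, and the call was lost without donor 10 (log2FC -5.87, adjusted p = 0.284, with 2.5e-14 to 0.284 over its alternatives). Of CDK inhibitors and D cyclins, 0 were called higher and 4 lower of 12 tested (1 and 2 of 12 under the 8-gene typing). The shares over all genes were 9.17% and 11.1%. CCND2, cyclin D2, was at 157, 238 and 207 CPM in FAPs and 1321, 825 and 1086 CPM in SCs (log2FC -2.51 ± 0.28, adjusted p = 0.00546), CCND3 fell by 2.05 on the log2 scale, and RB1, the retinoblastoma protein, by 1.65. CCND2 (adjusted p = 0.508) and CCND3 (adjusted p = 0.2397) were not called under the 8-gene typing, and over their alternatives the adjusted p ran from 1.56e-48 to 0.508. CCND1, cyclin D1, was at 571, 532 and 576 CPM in FAPs and 594, 652 and 613 CPM in SCs and was not called (log2FC -0.21 ± 0.10, adjusted p = 0.118).

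Among the genes called in both lists of proliferation, all were higher in FAPs. Of the mitosis list, 27 were called higher and 0 lower of 40 tested, with a median log2FC of 1.17, and of the list of DNA replication and S phase, 9 were called higher and 0 lower of 37 tested, with a median of 0.81. Of all genes, 9.17% were called higher. In unsorted cultures no gene of either list was called between FAPs and SCs, with medians of 0.08 and 0.27. The contrast was higher in SC cultures for 5 of 40 and 4 of 37 of these genes and lower for 0. Over all genes, 3.09% had a higher contrast in SC cultures. MKI67, the proliferation antigen, was at 111, 222 and 134 CPM in FAPs and 55.6, 78.7 and 54.4 CPM in SCs (log2FC 1.19 ± 0.12, adjusted p = 9.88e-07), and TOP2A, topoisomerase of mitotic chromosomes, at 118, 186 and 151 CPM in FAPs and 51.3, 73.9 and 43.8 CPM in SCs (log2FC 1.38 ± 0.12, adjusted p = 4.44e-07). CDC20, an activator of the anaphase-promoting complex, was at 78.5, 77.9 and 80.8 CPM in FAPs and 20.4, 21.7 and 18.8 CPM in SCs (log2FC 1.91 ± 0.13, adjusted p = 2.13e-08), and MCM4, of the replicative helicase, at 50.9, 71.1 and 70.7 CPM in FAPs and 24.9, 25.8 and 23.3 CPM in SCs (log2FC 1.29 ± 0.14, adjusted p = 3.39e-06). Neither type overlapped the other in these genes. The calls changed with the typing of cells. The 8-gene typing counted most annotated SCs as FAPs, so it cannot decide whether annotated FAPs and SCs differ in these genes. Under the 8-gene typing MKI67, TOP2A, CDC20 and MCM4 were not called, with adjusted p of 0.702, 0.163, 0.126 and 0.534, and the medians of the mitosis and S phase lists were 0.13 and -0.00794. In that edgeR fit 0 of 40 and 0 of 35 genes were called, with 4 and 2 at an unadjusted p below 0.05. Under the 6-gene typing 10 of 40 and 7 of 36 were called higher, without MKI67 (log2FC 0.80) and TOP2A (adjusted p = 0.0858). Over the alternatives of the 4 genes the adjusted p ran from 2.61e-33 to 0.702. PCNA, the sliding clamp, was at 108, 152 and 128 CPM in FAPs and 62.8, 69.4 and 54.3 CPM in SCs, just under the fold threshold (log2FC 0.98 ± 0.12, adjusted p = 7.85e-06). In cells thinned to 5000 UMIs, MKI67 had a UMI in 23.4, 25.8 and 24.3% of FAPs and 8.35, 9.76 and 9.25% of SCs.

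The deposited cell cycle phases gave the same order. They are labels of the same cells from the same transcript data, so they are no independent evidence. Cells in G1 were 40.98, 29.03 and 37.1% of FAPs and 57.1, 58.1 and 53.5% of SCs, lower in FAPs in 3 of 3 donors by 20.5 ± 7.43 percentage points (SD, exact sign-flip p = 0.25, the smallest possible). FAPs were the deeper cells, and the part of depth in these calls was not tested. In FAPs of FAP cultures 81.2, 76.7 and 79.8% of cells were in G1. In unsorted cultures G1 held 70.9, 75.2 and 78.4% of FAPs and 66.1, 72.5 and 72.4% of SCs, so the order was the other way there.

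**Figure D4:**
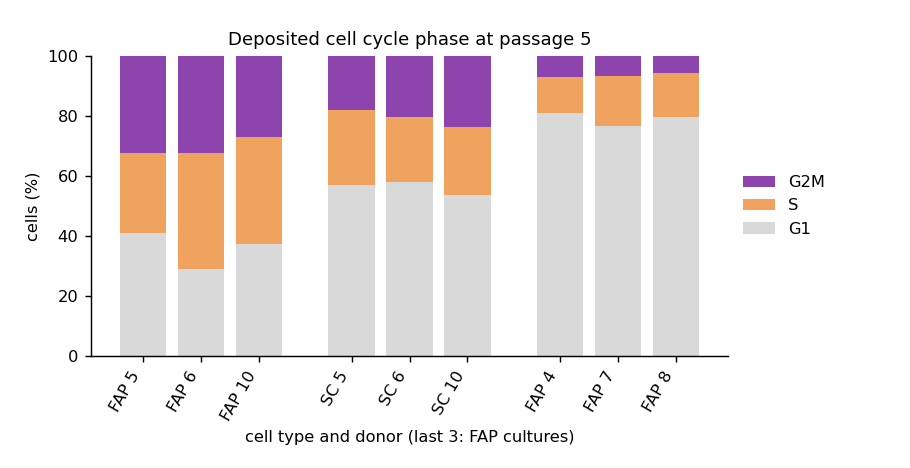
Share of cells (%, y axis) in G1, S and G2M by the deposited phase, 1 bar per cell type and donor (x axis), for FAPs and SCs of SC cultures and FAPs of FAP cultures. FAPs of SC cultures have the lowest G1 shares, 29.0% to 41.0%, SCs 53.5% to 58.1%, and FAPs of FAP cultures 76.7% to 81.2%.

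Most cytokine genes were higher in FAPs. Of the list of chemokines and cytokines, 12 were called higher and 0 lower of 15 tested (4 and 0 of 12 under the 8-gene typing), against 9.17% of all genes called higher, and the median log2FC was 4.44. CXCL5, a neutrophil chemoattractant, was at 1371, 2446 and 1031 CPM in FAPs and 43.4, 105 and 34.5 CPM in SCs (log2FC 4.74 ± 0.13, adjusted p = 4.12e-12), CXCL2, of the same family, at 295, 578 and 211 CPM in FAPs and 11.8, 20.1 and 8.05 CPM in SCs (log2FC 4.67 ± 0.12, adjusted p = 1.37e-12), and PTGS2, the inducible prostaglandin synthase, at 7.04, 12.4 and 13.3 CPM in FAPs and 0.378, 0.158 and 0.355 CPM in SCs (log2FC 5.18 ± 0.44, adjusted p = 2.43e-07). FAPs exceeded SCs in every donor for each gene, and SCs of donor 6 were the highest SCs for CXCL5 and CXCL2. CXCL3 was at 473, 399.6 and 273 CPM in FAPs and 18.7, 49.02 and 21.2 CPM in SCs (log2FC 3.71 ± 0.49, adjusted p = 0.0274), a call lost without donor 10 (log2FC 3.77, adjusted p = 0.294, with 3.36e-36 to 0.294 over its alternatives). Neither CXCL3 (adjusted p = 0.0893) nor CXCL5 (adjusted p = 0.0599) was called under the 8-gene typing, with 4.01e-249 to 0.294 over their alternatives. CXCL8, interleukin 8, was lower in level, at 29.7, 21.4 and 12.9 CPM in FAPs and 0.851, 1.86 and 0.355 CPM in SCs (log2FC 4.38 ± 0.34, adjusted p = 1.23e-06). In the list of complement genes, 6 were called higher and 1 lower of 13 tested (5 and 0 of 12 under the 8-gene typing), with a median of 1.75. C1R, a protease of the C1 complex, was at 38.6, 85.8 and 29.8 CPM in FAPs and 7.19, 8.19 and 7.26 CPM in SCs (log2FC 2.56 ± 0.24, adjusted p = 5.04e-05). C3, the central component, was at 78.2, 94.8 and 69.3 CPM in FAPs and 17.3, 35.9 and 16.3 CPM in SCs (log2FC 1.85 ± 0.17, adjusted p = 3.01e-06).

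MT2A and SOD2, of the list of metallothioneins and redox genes, differed among FAPs of the 3 donors. MT2A, a metallothionein, was at 4289, 2572 and 2018 CPM in FAPs and 142, 103 and 148 CPM in SCs (log2FC 4.38 ± 0.35, adjusted p = 0.00534). SOD2, mitochondrial superoxide dismutase, was at 1823, 1089 and 627 CPM in FAPs and 92.03, 123 and 73.4 CPM in SCs (log2FC 3.45 ± 0.41, adjusted p = 0.0194). FAPs of donor 5 were highest and those of donor 10 lowest in both genes, and every FAP value lay above every SC value. Neither was called under the 8-gene typing (adjusted p = 0.0917 and 0.148, 2.44e-171 to 0.148 over their alternatives). In their list, 6 were called higher and 2 lower of 21 tested (1 and 1 of 21 under the 8-gene typing), and its summed level was 14455, 13575 and 12007 CPM in FAPs. RBP4, a retinol carrier, was at 458, 412 and 515 CPM in FAPs and 44.5, 30.9 and 27.98 CPM in SCs (log2FC 3.70 ± 0.15, adjusted p = 7.87e-09). In the list of cholesterol and fatty acid synthesis 4 were called higher and 0 lower of 28 tested (1 and 1 of 28 under the 8-gene typing). In the adipogenic list 6 were called higher and 5 lower of 22 tested (6 and 1 of 21 under the 8-gene typing). The counts of these 3 lists stand beside 9.17% of all genes called higher and 11.1% lower.

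The extracellular matrix did not separate FAPs from SCs in 1 direction. In the list of interstitial collagens, 3 were called higher and 3 lower of 14 tested, with a median log2FC of 0.34. The shares over all genes were 9.17% and 11.1%. COL1A1 was at 3485, 4023 and 4758 CPM in FAPs and 4099, 4242 and 2415 CPM in SCs (log2FC 0.15 ± 0.34, adjusted p = 0.781). COL3A1 was at 1478, 2004 and 2774 CPM in FAPs and 2383, 2549 and 2297 CPM in SCs (log2FC -0.32 ± 0.19, adjusted p = 0.2602). For both, the groups overlapped and no difference was detectable. COL1A2, the partner chain of COL1A1 in collagen I, was at 2589, 2943 and 3861 CPM in FAPs and 7118, 7137 and 6871 CPM in SCs (log2FC -1.25 ± 0.11, adjusted p = 3.41e-06), higher in SCs in every donor. COL11A1, a minor fibrillar chain that nucleates fibrils, was at 57.3, 50.8 and 44.98 CPM in FAPs and 378, 451 and 425 CPM in SCs (log2FC -3.06 ± 0.14, adjusted p = 3.49e-10), and SPARC, the collagen-binding osteonectin, at 1678, 2051 and 2579.9 CPM in FAPs and 5052, 4682 and 4655 CPM in SCs (log2FC -1.28 ± 0.12, adjusted p = 2e-05). SCs thus held more of these transcripts than FAPs did. COL6A3, a chain of microfibrillar collagen VI, was at 27.96, 23.7 and 57.4 CPM in FAPs and 1.23, 0.158 and 0.355 CPM in SCs (log2FC 6.21 ± 0.59, adjusted p = 0.00163), and COL16A1, of fibril-associated collagen, at 15.9, 13.5 and 17.9 CPM in FAPs and 1.702, 1.42 and 1.03 CPM in SCs (log2FC 3.49 ± 0.29, adjusted p = 1.66e-07), both higher in FAPs. COL6A1, COL5A1 and FN1 (fibronectin) were not called. When cells were typed by the 8 genes that include DCN and LUM, COL1A2, COL11A1 and SPARC changed direction, to log2FC 0.35, 0.80 and 0.27, and 10 of 14 interstitial collagens were higher and none lower. Under the 6-gene typing 4 were higher and none lower, with a median of 0.48, and the calls of COL1A2 (log2FC -0.963) and COL11A1 (adjusted p = 0.112, 3.73e-80 to 0.112 over its alternatives) were lost.

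Among proteoglycans, 7 were called higher and 4 lower of 20 tested (9 and 1 of 20 under the 8-gene typing). For each list of this paragraph the background was 9.17% of all genes called higher and 11.1% lower. VCAN, the large proteoglycan versican, was at 681, 654 and 374 CPM in FAPs and 69.99, 59.3 and 53.7 CPM in SCs (log2FC 3.12 ± 0.14, adjusted p = 1.15e-09). ASPN, asporin, was at 8.83, 19.2 and 4.13 CPM in FAPs and 2.36, 1.96 and 1.54 CPM in SCs (log2FC 2.16 ± 0.36, adjusted p = 0.000252). Both were higher in FAPs in every donor, and ASPN was low in both types. Of elastic fibre and matricellular genes, 10 were called higher and 4 lower of 32 tested (14 and 0 of 29 under the 8-gene typing), among them MFAP5, a microfibril protein, at 309.96, 243 and 256 CPM in FAPs and 18.9, 29.6 and 14.5 CPM in SCs (log2FC 3.68 ± 0.31, adjusted p = 0.002003). Of basement membrane genes, 2 were called higher and 7 lower of 16 tested (8 and 0 of 16 under the 8-gene typing), and NID2, nidogen-2, which links laminin to collagen IV, was at 22.2, 36.1 and 20.2 CPM in FAPs and 96.2, 114 and 108 CPM in SCs (log2FC -2.15 ± 0.14, adjusted p = 1.61e-08). Of matrix proteases and inhibitors, 4 were called higher and 4 lower of 19 tested (10 and 0 of 19 under the 8-gene typing), and TIMP2, a metalloprotease inhibitor, was at 453, 456 and 417 CPM in FAPs and 3127, 2039 and 2808 CPM in SCs (log2FC -2.64 ± 0.12, adjusted p = 3.47e-09). SCs were above FAPs in both NID2 and TIMP2. Under the 8-gene typing MFAP5, NID2, TIMP2 and ASPN were not called (adjusted p from 0.0506 to 0.586, 3.12e-80 to 0.586 over their alternatives), nor was TIMP2 under the 6-gene typing (adjusted p = 0.0622).

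Other FAP genes were clearer. In the list of FAP identity genes, 11 were called higher and 1 lower of 22 tested, with a median of 1.64. CD248, the stromal antigen endosialin, was at 447, 475 and 556 CPM in FAPs and 25.3, 44.3 and 21.5 CPM in SCs (log2FC 4.02 ± 0.33, adjusted p = 0.00278), DPT, dermatopontin, at 70.3, 28.2 and 38.1 CPM in FAPs and 1.797, 1.802 and 1.697 CPM in SCs (log2FC 4.53 ± 0.24, adjusted p = 2.67e-08), and TWIST1, a mesenchymal transcription factor that opposes myogenesis, at 71.5, 34.995 and 68.8 CPM in FAPs and 3.22, 2.402 and 2.33 CPM in SCs (log2FC 4.40 ± 0.20, adjusted p = 7.27e-10). No donor's FAPs overlapped any SCs in the 3 genes, and DPT was not called under the 8-gene typing (adjusted p = 0.0584, 9.16e-63 to 0.0584 over its alternatives).

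In the list of growth factor ligands, 6 were called higher and 13 lower of 40 tested (11 and 5 of 37 under the 8-gene typing). PTN, the heparin-binding pleiotrophin, was at 70.1, 42.9 and 85.4 CPM in FAPs and 865, 237 and 572 CPM in SCs (log2FC -3.10 ± 0.23, adjusted p = 0.000137). TGFB2, a transforming growth factor, was at 8.15, 12.4 and 8.26 CPM in FAPs and 92.1, 50.4 and 66.9 CPM in SCs (log2FC -3.20 ± 0.21, adjusted p = 2.03e-07). IGF2, a growth factor of myoblasts, was at 0.185, 0 and 0 CPM in FAPs and 3.03, 1.86 and 2.09 CPM in SCs, with 3 UMIs in all FAPs, so no fold is given here. SCs were the higher type for these ligands by the annotation, and the IGF2 call was lost under the 8-gene typing (adjusted p = 0.08898, 5.48e-07 to 0.08898 over its alternatives). HGF, the ligand of MET, was at 4.75, 1.13 and 1.38 CPM in FAPs and 0.189, 0.0632 and 0.158 CPM in SCs (log2FC 3.88 ± 0.66, adjusted p = 0.000229), low in both types and higher in FAPs, while MET itself was higher in SCs. In the list of receptors, 3 were called higher and 6 lower of 28 tested (7 and 2 of 26 under the 8-gene typing), against 9.17% higher and 11.1% lower of all genes. OSMR, the oncostatin M receptor, was at 12.5, 19.2 and 7.34 CPM in FAPs and 1.04, 1.33 and 0.987 CPM in SCs (log2FC 3.39 ± 0.32, adjusted p = 6.8e-07), ACVR2B, a receptor of myostatin and activin, at 0.617, 1.13 and 0.918 CPM in FAPs and 7.19, 5.56 and 5.72 CPM in SCs (log2FC -3.28 ± 0.41, adjusted p = 1.35e-05), and FGFR1 at 48.8, 42.9 and 27.998 CPM in FAPs and 43.1, 32.3 and 21.1 CPM in SCs, not called (log2FC 0.25 ± 0.14, adjusted p = 0.169). ACVR2B was not called under the 8-gene typing (adjusted p = 0.667, 1.12e-11 to 0.667 over its alternatives), and PTN turned positive there (log2FC 1.66). Under the 6-gene typing the PTN call was lost (adjusted p = 0.185, 9.35e-66 to 0.185 over its alternatives).

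Of IGF binding proteins, 4 were called higher and 1 lower of 8 tested (5 and 0 of 8 under the 8-gene typing). For this list and the Wnt, Notch and integrin lists, the background was 9.17% of all genes called higher and 11.1% lower. IGFBP2 had 5 UMIs in FAPs, all in donor 5, and was at 0.309, 0 and 0 CPM in FAPs and 73.4, 59.8 and 15.6 CPM in SCs (adjusted p = 5.78e-11). With 0 UMIs in FAPs of donors 6 and 10, no fold is given. IGFBP6 was at 1549, 964 and 845 CPM in FAPs and 336, 339 and 168 CPM in SCs (log2FC 1.95 ± 0.19, adjusted p = 0.000442). In the Wnt list, 4 were called higher and 5 lower of 15 tested (10 and 3 of 16 under the 8-gene typing). WNT5A, a non-canonical ligand, was at 23.95, 32.7 and 29.8 CPM in FAPs and 2.36, 5.06 and 3.91 CPM in SCs (log2FC 2.92 ± 0.21, adjusted p = 3.38e-08), and DKK3, a dickkopf family member, at 136, 138 and 159 CPM in FAPs and 22.1, 37.2 and 17.1 CPM in SCs (log2FC 2.53 ± 0.31, adjusted p = 0.00611). SFRP1, a secreted Wnt antagonist, was at 9.38, 16.9 and 19.3 CPM in FAPs and 213, 175 and 172 CPM in SCs (log2FC -3.92 ± 0.30, adjusted p = 0.000514). FAPs were the higher type for WNT5A and DKK3 and the lower for SFRP1. Under the 6-gene typing IGFBP2 (adjusted p = 0.145) and SFRP1 (adjusted p = 0.122) were not called, and under the 8-gene typing IGFBP2 was not called (adjusted p = 0.549) and SFRP1 turned positive (log2FC 3.09), with 1.05e-92 to 0.549 over their alternatives. In the Notch list, 1 was called higher and 6 lower of 13 tested. Of integrins, 4 were called higher and 1 lower of 14 tested (7 and 2 of 13 under the 8-gene typing), with ITGB3, of the vitronectin receptor, at 21.5, 22.6 and 34.4 CPM in FAPs and 4.54, 5.12 and 3.24 CPM in SCs (log2FC 2.58 ± 0.26, adjusted p = 7.23e-06). ITGA6, a laminin receptor subunit, was at 60.8, 56.4 and 56.5 CPM in FAPs and 73.4, 12.5 and 25.7 CPM in SCs, even in FAPs and uneven in SCs (log2FC 0.74 ± 0.64, adjusted p = 0.486), and passed without donor 5 (log2FC 1.49, adjusted p = 0.00126, with 0.00126 to 0.826 over its alternatives).

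Among patterning transcription factors, 11 were called higher and 16 lower of 47 tested (10 and 3 of 47 under the 8-gene typing). The shares over all genes were 9.17% and 11.1%. PRRX2, a mesenchymal homeobox gene, was at 48.2, 66.6 and 67.9 CPM in FAPs and 5.86, 3.57 and 3.04 CPM in SCs (log2FC 3.84 ± 0.28, adjusted p = 5.16e-05). PAX3, the paralogue of PAX7 in muscle progenitors, was at 15.8, 23.7 and 6.88 CPM in FAPs and 43.1, 46.6 and 38.5 CPM in SCs (log2FC -1.62 ± 0.22, adjusted p = 0.000175), lower in FAPs but present in all 3, and its log2FC turned to 0.0956 under the 8-gene typing. FAPs of FAP cultures had it at 0.551, 1.53 and 0.595 CPM.

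Genes of protein synthesis and respiration differed by less than the fold threshold. None of 74 cytosolic ribosomal protein genes, 40 ribosome biogenesis genes or 68 nuclear genes of oxidative phosphorylation was called by edgeR or DESeq2. At an unadjusted p below 0.05 by edgeR there were 63, 10 and 29, and the median log2FC of the 3 lists were -0.32, 0.16 and -0.19. The medians were 0.10, -0.30 and -0.53 under the 8-gene typing and -0.25, 0.12 and -0.19 under the 6-gene typing, again with none called. Of glycolytic genes, 6 were called higher and 6 lower of 27 tested (0 and 3 of 26 under the 8-gene typing), and ENO3, the muscle enolase, was at 137, 182 and 149.6 CPM in FAPs and 608, 1108 and 856 CPM in SCs (log2FC -2.48 ± 0.12, adjusted p = 8.26e-10), a call lost under the 8-gene typing (adjusted p = 0.217, 8.72e-69 to 0.217 over its alternatives). The remaining lists were the dystrophin complex, where 0 were called higher and 6 lower of 12 tested (2 and 2 of 12 under the 8-gene typing), YAP and TEAD targets, where 2 were called higher and 4 lower of 20 tested, and smooth muscle and contractile genes, where 1 was called higher and 4 lower of 19 tested (3 and 1 of 19 under the 8-gene typing). Over all genes 9.17% were called higher and 11.1% lower, so 2 of 20 and 1 of 19 higher are near that background.

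Markers of other muscle cell types were summed per pseudobulk. Summed levels of 6 endothelial markers ran from 2.29 to 6.85 CPM in FAPs and 3.43 to 5.49 CPM in SCs, and F11R had no UMI in FAPs while PECAM1 and KDR had none in SCs. Macrophage markers summed to 11.5 to 15.99 CPM in FAPs and 2.76 to 3.603 CPM in SCs, with PTPRC and C1QA at 0 in both. Glial markers summed to 5.64 to 26.6 CPM in FAPs and 15.1 to 65.4 CPM in SCs, with SOX10 and NGFR at 0 in both. Tenocyte markers summed to 67.3 to 80.2 CPM in FAPs and 63.1 to 93.3 CPM in SCs, with TNMD at 0 in both and SCX at 0 in FAPs. Markers of smooth muscle and mural cells summed to 358 to 993 CPM in FAPs and 934 to 1010 CPM in SCs, with RGS5 at 0 in both and MCAM at 0 in FAPs.

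The contrast between the types was then set against that in unsorted cultures, whose donors gave 447, 947 and 777 FAPs and 354, 51 and 145 SCs. There, 9.2% of 12347 genes were higher and 9.01% lower in FAPs. The contrast itself differed for 382 genes with a higher value in SC cultures (3.09%) and 596 with a lower one (4.83%), by the interaction term of cell type and culture kind. Without donor 1 the higher count was 243. SC identity genes had medians of -5.32 in SC cultures and -4.79 in unsorted cultures, and 2 of 19 had a contrast that differed, against 7.92% of all genes. Of 22 FAP identity genes, 17 were called higher and 0 lower in FAPs of unsorted cultures, with a median of 2.42. Their contrast was lower in SC cultures for 6 of 22 and higher for 1. Donor and, by the culture methods, coating go with culture kind here too.

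In unsorted cultures 9 of 14 interstitial collagens were called higher in FAPs and none lower, with a median log2FC of 1.71. The contrast was lower in SC cultures for 6 of the 14 and higher for none, against 4.83% and 3.09% of all genes. COL1A2 was at 7145, 14357 and 10468 CPM in FAPs and 3209, 4386 and 3574 CPM in SCs of the unsorted cultures (log2FC 1.74 ± 0.14, adjusted p = 4.01e-05), and its contrast in SC cultures was lower (difference -3.0004 ± 0.20, adjusted p = 7.01e-05). COL3A1 was at 4941, 12850.4 and 8034 CPM in FAPs and 1297, 2912 and 1401 CPM in SCs of the unsorted cultures (log2FC 2.47 ± 0.21, adjusted p = 0.000515; difference -2.79 ± 0.29, adjusted p = 0.00357). COL1A2 in SCs of SC cultures (7118, 7137 and 6871 CPM) lay above that in SCs of unsorted cultures, while in FAPs of SC cultures it lay below every value in FAPs of unsorted cultures. COL1A1 was at 10129.8, 18251 and 13820.2 CPM in FAPs and 1609, 2248 and 1513 CPM in SCs of the unsorted cultures (log2FC 3.23 ± 0.30, adjusted p = 0.00155; difference -3.075 ± 0.40, adjusted p = 0.0129), a call that was lost without donor 2, 5 or 9, with adjusted p of 0.0521, 0.0542 and 0.0550 and 1.16e-18 to 0.0550 over its alternatives. SPARC followed the same order (difference -2.91 ± 0.27, adjusted p = 0.00165).

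Of 17 cytokine genes tested, 5 had a higher contrast in SC cultures and none a lower one, and 12 were not called. Over all genes, 3.09% had a higher contrast and 4.83% a lower one. CCL2 was at 1441, 1269.7 and 1496 CPM in FAPs and 788, 562 and 954 CPM in SCs of the unsorted cultures (log2FC 1.16 ± 0.46, adjusted p = 0.128; difference 3.62 ± 0.67, adjusted p = 0.0374), and CXCL5 at 1297, 1728 and 1296 CPM in FAPs and 539, 419 and 576 CPM in SCs of the unsorted cultures (log2FC 1.75 ± 0.19, adjusted p = 0.0004496; difference 2.98 ± 0.27, adjusted p = 0.000691). CCL2 in SCs of SC cultures, at 39.4, 174 and 42.3 CPM, lay below every value in SCs of unsorted cultures, and in FAPs of SC cultures, at 1826, 2117 and 1796 CPM, above every value in FAPs of unsorted cultures. The CCL2 difference was lost without donor 1, 2, 5, 9 or 10, with adjusted p of 0.0957 to 0.138 and the direction kept, and over its alternatives the adjusted p ran from 2.08e-10 to 0.138. The CXCL3 difference was lost without donor 1, 2, 9 or 10 (adjusted p from 0.0615 to 0.0838) and that of CXCL8 without donor 5 or 10 (0.0672 to 0.09704), with 2.17e-17 to 0.09704 over their alternatives. Without the donor block CXCL8 (adjusted p = 0.0582) and CXCL2 (adjusted p = 0.0546, 5.35e-24 to 0.0546 over its alternatives) were not called.

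By the rule for named genes, the largest positive differences were those of MYL2, RAMP3, CA4, NAV3 and CCL2. Without the donor block RAMP3 was not called (adjusted p = 0.0848, 6.83e-16 to 0.0848 over its alternatives). MYL2, a myosin light chain, was at 0.741, 1.13 and 0.918 CPM in FAPs and 1.702, 1.07 and 3.43 CPM in SCs of SC cultures and 0.627, 0.846 and 0.681 CPM in FAPs and 115, 36.3 and 160.4 CPM in SCs of the unsorted cultures (difference 5.48 ± 0.99, adjusted p = 0.00602). It was high in SCs of unsorted cultures, and the call was lost without donor 5 (difference 5.28, adjusted p = 0.226, with 1.85e-09 to 0.226 over its alternatives). CA4 was at 392.3, 88.03 and 123 CPM in FAPs and 156, 51.9 and 48.3 CPM in SCs of the unsorted cultures, against 1204, 1859 and 1349 CPM in FAPs of SC cultures (difference 3.80 ± 0.31, adjusted p = 0.000357). NAV3, a microtubule-associated protein, was at 57.8, 47.4 and 91.8 CPM in FAPs and 6.05, 10.1 and 5.999 CPM in SCs of SC cultures and 20.5, 15.6 and 15.03 CPM in FAPs and 29.8, 28.5 and 28.4 CPM in SCs of the unsorted cultures (difference 3.62 ± 0.43, adjusted p = 0.00132). Under the same rule, which asks for at least 50 CPM on average in the higher group, the largest negative differences were those of CPE, CPZ, GAL, CLEC12B and P4HA3. The GAL call was lost without donor 1, 5, 6, 9 or 10 (adjusted p from 0.0553 to 0.221) or without a filter on low counts (adjusted p = 0.0569), and that of CLEC12B without donor 5, 6, 9 or 10 (0.0718 to 0.222) or without the donor block (adjusted p = 0.133), with 9.57e-05 to 0.222 over their alternatives. CPE was at 16.5, 89.6 and 23.02 CPM in FAPs and 15.2, 81.7 and 23.7 CPM in SCs of the unsorted cultures, where the types overlapped (log2FC 0.35 ± 0.14, adjusted p = 0.0537; difference -6.59 ± 0.25, adjusted p = 2.27e-11). P4HA3, of collagen prolyl hydroxylase, was at 15.3, 15.8 and 18.4 CPM in FAPs and 100.1, 103 and 133 CPM in SCs of SC cultures and 74.7, 124 and 108 CPM in FAPs and 34.9, 24.6 and 41.6 CPM in SCs of the unsorted cultures (difference -4.51 ± 0.24, adjusted p = 1.23e-07), so the type with the higher level was not the same in both culture kinds.

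**Figure D5:**
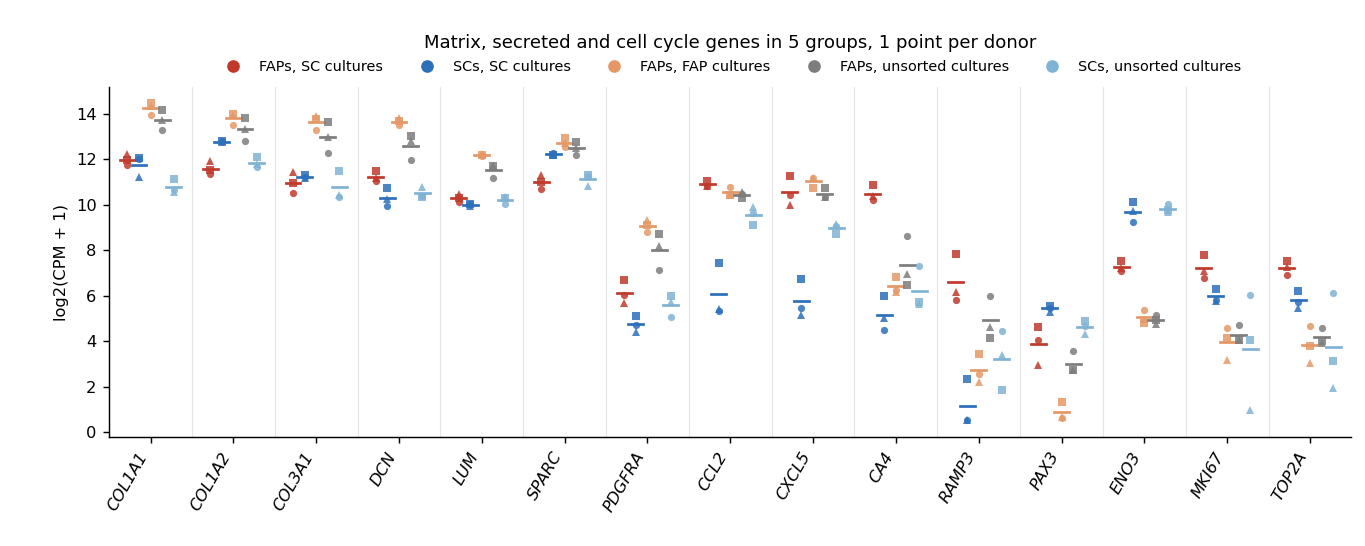
Level of 15 genes as log2(CPM + 1) (y axis) in 5 groups of 3 donors each, 1 point per donor pseudobulk (circle, square and triangle in the orders 5, 6 and 10, then 4, 7 and 8, then 1, 2 and 9) with a bar at the mean. FAPs of SC cultures lie below the other FAPs for COL1A1, COL1A2, COL3A1, DCN, LUM, SPARC and PDGFRA and above them for CA4, MKI67 and TOP2A.

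Last, the FAPs of SC cultures were set beside FAPs of FAP cultures, 1345, 1172 and 1437 cells. Of 11517 genes, 920 (7.99%) were higher and 910 (7.9%) lower in FAPs of SC cultures, in an unpaired fit. PDGFRA was at 64.6, 104 and 50.03 CPM in FAPs of SC cultures and 444, 547 and 638 CPM in FAPs of FAP cultures (log2FC -3.16 ± 0.26, adjusted p = 0.000166). DCN was at 2101, 2846 and 2335 CPM in FAPs of SC cultures and 11519, 13082 and 14564 CPM in FAPs of FAP cultures (log2FC -2.64 ± 0.12, adjusted p = 1.1e-05). In the collagen list 0 were called higher and 8 lower of 14 tested, with a median log2FC of -1.81. All FAPs of SC cultures lay below all FAPs of FAP cultures for both genes. COL1A1 was at 3485, 4023 and 4758 CPM in FAPs of SC cultures and 15693, 22719 and 21149 CPM in FAPs of FAP cultures (log2FC -2.49 ± 0.17, adjusted p = 5.94e-05), and COL1A2 and COL3A1 had log2FC of -2.43 and -2.86. Of complement genes, 0 were called higher and 9 lower of 13 tested, C1R at 38.6, 85.8 and 29.8 CPM in FAPs of SC cultures and 331, 448 and 589 CPM in FAPs of FAP cultures (log2FC -3.49 ± 0.43, adjusted p = 0.00173). Of receptors, 2 were called higher and 12 lower of 26 tested. Of the FAP identity list, 3 were called higher and 11 lower of 21 tested, with a median of -1.34. DPT and TWIST1 were among those lower. The DPT call was lost without donor 7, 8 or 10 (adjusted p from 0.0539 to 0.0630) and that of TWIST1 without donor 6 (log2FC -0.88).

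Cell cycle genes went the other way. Of the mitosis list 39 were called higher and 0 lower of 40 tested, and of the S phase list 28 were called higher and 0 lower of 37 tested, with medians of 2.48 and 1.85. MKI67 was at 111, 222 and 134 CPM in FAPs of SC cultures and 22.96, 16.7 and 8.18 CPM in FAPs of FAP cultures (log2FC 3.01 ± 0.45, adjusted p = 0.00409), and CCND1 at 571, 532 and 576 CPM in FAPs of SC cultures and 165, 163 and 88.8 CPM in FAPs of FAP cultures (log2FC 1.81 ± 0.24, adjusted p = 0.00111). Ribosome biogenesis genes numbered 10 called higher and 0 lower of 40 tested. None of the 15 cytokine genes tested was called by edgeR or DESeq2, and 0 had an unadjusted p below 0.05 by edgeR. IL6 passed without donor 10 (log2FC 2.01, adjusted p = 0.00192, with 0.00192 to 0.293 over its alternatives) and CXCL5 without donor 6 (log2FC -1.01, adjusted p = 0.00987, with 0.00987 to 0.343 over its alternatives). CCL2 was at 1826, 2117 and 1796 CPM in FAPs of SC cultures and 1781, 1380.4 and 1378 CPM in FAPs of FAP cultures (log2FC 0.13 ± 0.11, adjusted p = 0.373).

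ITGA5 was higher in FAPs of SC cultures, at 260.4, 294 and 436 CPM in FAPs of SC cultures and 101.3, 96.6 and 82.5 CPM in FAPs of FAP cultures (log2FC 1.61 ± 0.19, adjusted p = 0.000452), and so was ITGA6, at 60.8, 56.4 and 56.5 CPM in FAPs of SC cultures and 2.69, 5.49 and 2.83 CPM in FAPs of FAP cultures (log2FC 3.81 ± 0.28, adjusted p = 8.87e-05). CA4 was at 1204, 1859 and 1349 CPM in FAPs of SC cultures and 76.2, 111 and 72 CPM in FAPs of FAP cultures (log2FC 3.87 ± 0.23, adjusted p = 5.29e-05), and ESM1 at 630.3, 437 and 397 CPM in FAPs of SC cultures and 32.4, 46.8 and 18.4 CPM in FAPs of FAP cultures (log2FC 3.72 ± 0.43, adjusted p = 0.00143). The groups did not overlap in any of the 4, which the rule for named genes required of ITGA6, CA4 and ESM1. RAMP3 was at 54.6, 226 and 70.7 CPM in FAPs of SC cultures and 4.89, 10.03 and 3.64 CPM in FAPs of FAP cultures (log2FC 3.86 ± 0.75, adjusted p = 0.0131), and NRN1, neuritin, at 107, 46.3 and 29.8 CPM in FAPs of SC cultures and 1.39, 8.999 and 0.9298 CPM in FAPs of FAP cultures (log2FC 4.01 ± 1.07, adjusted p = 0.0375). Calls of RAMP3 and NRN1 were lost without donor 4 (log2FC 3.67, adjusted p = 0.0659, with 6.75e-07 to 0.0659 over its alternatives for RAMP3; log2FC 3.602, adjusted p = 0.117, with 0.00212 to 0.138 over its alternatives for NRN1) or donor 8 (log2FC 3.58, adjusted p = 0.0591; log2FC 3.54, adjusted p = 0.114), and NRN1 also without donor 5 (log2FC 3.04, adjusted p = 0.138). By the rule for named genes, with at least 50 CPM on average in the higher group, the largest falls were those of CLEC12B, a C-type lectin, at 2.59, 3.39 and 2.75 CPM in FAPs of SC cultures and 120.1, 229 and 179 CPM in FAPs of FAP cultures (log2FC -6.21 ± 0.36, adjusted p = 5.23e-05), PRSS35, a serine protease family member, CPZ, a carboxypeptidase that binds Wnt, CHI3L1, a chitinase-like protein, and ASPN. ASPN was at 8.83, 19.2 and 4.13 CPM in FAPs of SC cultures and 153, 188 and 137 CPM in FAPs of FAP cultures (log2FC -4.34 ± 0.34, adjusted p = 0.000171). CHI3L1 was high in FAPs of donor 6 among the SC cultures, at 3.77, 46.3 and 3.67 CPM in FAPs of SC cultures and 69.3, 187 and 287 CPM in FAPs of FAP cultures (log2FC -4.59 ± 1.21, adjusted p = 0.0369), and its call was lost without donor 5, 7, 8 or 10, with log2FC between -4.55 and -3.53 and adjusted p from 0.0838 to 0.118. With no filter on low counts the calls of CHI3L1 (adjusted p = 0.0705) and NRN1 (adjusted p = 0.0747) were lost, and likewise with thinned sums (0.0591 and 0.0767), with 0.00212 to 0.138 over their alternatives.

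Of the SC identity list, 1 was called higher and 1 lower of 13 tested between the 2 kinds of FAPs. These counts are near the 7.99% and 7.9% of all genes called in this comparison. The list has 22 genes, and PAX7 and CDH15 were among those not tested here. PAX3, ENO3 and MET, higher in SCs than in FAPs of SC cultures, were higher in these FAPs than in FAPs of FAP cultures, whereas COL11A1, NID2, COL1A2, SPARC and TIMP2, also higher in SCs, were lower, with log2FC from -3.58 to -1.23. The genes were chosen after their values were seen. PAX3 was at 15.8, 23.7 and 6.88 CPM in FAPs of SC cultures and 0.551, 1.53 and 0.595 CPM in FAPs of FAP cultures (log2FC 3.86 ± 0.52, adjusted p = 0.00107). ENO3 was at 137, 182 and 149.6 CPM in FAPs of SC cultures and 40.9, 26.6 and 30.6 CPM in FAPs of FAP cultures (log2FC 2.03 ± 0.16, adjusted p = 6.46e-05). MET was at 3.77, 5.64 and 1.84 CPM in FAPs of SC cultures and 1.04, 1.11 and 0.483 CPM in FAPs of FAP cultures (log2FC 1.81 ± 0.44, adjusted p = 0.0102), a call lost without donor 5 (log2FC 1.58, adjusted p = 0.142, with 0.00744 to 0.142 over its alternatives). FAPs of unsorted cultures had PAX3 at 10.9, 5.699 and 5.77 CPM and ENO3 at 34.7, 29.6 and 26.2 CPM. In cells thinned to 5000 UMIs, PAX3 had a UMI in 8.47, 12.9 and 2.86% of FAPs and 17.2, 19.1 and 16.7% of SCs of SC cultures, and in 0.149, 0.769 and 0.0701% of FAPs of FAP cultures. MYF5 (log2FC -0.60 ± 0.85, adjusted p = 0.6204), DES (log2FC 0.10 ± 0.24, adjusted p = 0.9901), MYOD1 (log2FC 1.21 ± 0.69, adjusted p = 0.203) and ITGA7 (log2FC 1.43 ± 0.73, adjusted p = 0.176) were not called between the 2 kinds of FAPs. Without donor 5 the last 2 passed, at log2FC 2.11, adjusted p = 0.005402, with 0.005402 to 0.5396 over its alternatives and log2FC 2.18, adjusted p = 0.00723, with 0.00723 to 0.344 over its alternatives.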

How the data were processed

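The bovine donors were pooled per passage and sequenced as 1 Chromium 3′ library. The authors made the deposited UMI counts with Cell Ranger 6.0.1 on ARS-UCD1.2, per the submitters' processing notes, and deposited for each cell its donor, cell type, cell cycle phase and mitochondrial percent (the percent of a cell's UMIs from mitochondrial genes). Of 14498 barcodes at passage 5, 11140 were singlets and 19.1% doublets by donor genotype, and 10405 cells passed the authors' quality control. Doublets within a donor cannot be found by genotype, and no other caller was run. The passage 5 sample lists 2 sequencing runs. By the series design text the data of both runs are linked to the run 1 sample, and those data were used here. Whether the counts hold reads of both runs was not checked. A combined expression table of uncertain unit and 10 columns of the cell annotation were not used.

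For each donor, raw counts were added up over the cells of a type (at least 10 cells) and tested with edgeR 4.0.16 (TMM, filterByExpr, robust quasi-likelihood F test, 2-sided, Benjamini-Hochberg adjustment), with donor as a block where both types of a donor entered. A call needed a log2FC beyond 1 in either direction and an adjusted p under 0.05. log2FC are given ± a standard error, taken as the absolute log2FC over the square root of the F statistic. With 3 donors a group, it rests on variances moderated across genes and is not the spread among donors. Levels in the text are CPM of a sum, without TMM. Same-donor FAP and SC sums deviated from their group means with r = 0.162, 0.0900 and 0.133 for donors 5, 6 and 10, and pairing rests on their being the same animal. Cells of 1 culture are no replicates. A fold against a group with 0 UMIs used a floor of 3 UMIs over the group. Of 21880 genes, 5052 had no symbol and 68 symbols were shared.

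The text names, for FAPs against SCs, the 8 called genes with the largest log2FC in each direction that moved the same way in every donor and averaged at least 50 CPM in the higher type, 5 in each direction for the other comparisons, and members of gene lists. The members and lists were chosen with earlier results of these data known. Alternatives were DESeq2 1.42.0, no filter on low counts, no donor block, thinned sums, other cell typing, no cells with the most UMIs, sums of at least 30 cells, and leaving out each donor. The smallest sum for FAPs against SCs held 31 cells, so the 30-cell limit removed none and only repeated the main fit. Some genes of the lists are not reported here.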

Additional observations from a re-analysis of the deposited data

Results flagged for a closer look

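The FAP against SC contrast differed between SC cultures and unsorted cultures for 382 genes with a higher and 596 with a lower value in SC cultures, by the interaction term. Culture kind goes with donor and, by the culture methods, with coating, which cannot be told apart from it. Named genes are given with the difference of the contrast, SC cultures minus unsorted cultures, in log2 units.

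Matrix genes with a lower contrast in SC cultures were DCN (-1.52), LUM (-1.36), COL1A1 (-3.075), COL1A2 (-3.0004), COL3A1 (-2.79), COL5A1 (-2.38), COL11A1 (-2.55), SPARC (-2.91), NID2 (-3.68), TIMP2 (-1.89), ASPN (-2.42) and P4HA3 (-4.51). The calls of DCN and COL11A1 were lost without donor 5, 6, 9 or 10 (adjusted p from 0.101 to 0.129) and without a filter on low counts (0.0607 to 0.0647), that of COL1A1 without donor 2, 5 or 9 (0.0521 to 0.05499), and those of DCN and ASPN with thinned sums (0.0735 to 0.169). Over their alternatives the adjusted p of these 4 genes ran from 1.16e-18 to 0.169. Other genes with a lower contrast were PDGFRA (-1.34), CPE (-6.59), IGF2 (-5.89), PTN (-2.94), TGFB2 (-3.82), CPZ (-5.87), GAL (-5.69) and CLEC12B (-4.68), of which that of IGF2 is a fitted value from 3 UMIs in FAPs of SC cultures and gives no reliable size. GAL was not called without donor 1, 5, 6, 9 or 10 or without a filter (0.0553 to 0.221), CLEC12B without donor 5, 6, 9 or 10 (0.0718 to 0.222), and PDGFRA, IGF2 and CLEC12B without the donor block (0.0787 to 0.153). Over their alternatives the adjusted p ran from 3.97e-07 to 0.222. Among cytokine and complement genes the contrast was higher for CCL2 (3.62), CXCL2 (2.56), CXCL3 (3.33), CXCL5 (2.98), CXCL8 (4.12) and C3 (1.30). CCL2 was not called without donor 1, 2, 5, 9 or 10, CXCL3 without donor 1, 2, 9 or 10, and CXCL8 without donor 5 or 10 (0.0615 to 0.138), CXCL2, CXCL8 and C3 without the donor block (0.0546 to 0.457), and C3 with thinned sums, where its difference was 0.99. Over their alternatives the adjusted p ran from 5.35e-24 to 0.457. The contrast was also higher for FGFR4 (2.07), RAMP3 (4.32), CA4 (3.80), LGALS9 (2.15), ESM1 (2.99), MYH3 (1.46), CDC20 (1.45), FGFR1 (1.503), WNT5A (3.17), ENO3 (2.16), MYL2 (5.48) and NAV3 (3.62). CDC20 was not called without donor 1 (adjusted p = 0.527), MYH3 and MYL2 without donor 5 (0.2801 and 0.226), and MYH3 by DESeq2 (adjusted p = 0.219). FGFR4, MYH3 and CDC20 were not called with thinned sums (0.111 to 0.477), nor were these 3 and RAMP3 without the donor block (0.0675 to 0.309). Over their alternatives the adjusted p ran from 6.83e-16 to 0.527.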

How the results depend on the processing

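Of the counts for FAPs against SCs (1087 higher, 1318 lower), thinning every sum to the smallest total, which left 7619 genes to test, gave 643 and 594, and typing cells by 8 genes gave 833 and 595. The 6-gene typing, chosen after seeing the data, gave 956 and 1074, DESeq2 981 and 1022, and no filter on low counts 1234 and 1630. Leaving out 1 donor gave 875 to 1110 and 881 to 1291. Without the donor block (no pairing) there were 1016 and 1154, and for the interaction 283 and 445. The interaction (382 and 596) gave 217 and 260 with thinned sums, 372 lower by DESeq2, and 243 to 437 higher and 422 to 559 lower without 1 donor. For FAPs of SC cultures against FAPs of FAP cultures (920 and 910), thinned sums gave 509 and 517, and leaving out 1 donor gave 838 to 966 and 807 to 963. The mean FAP share at passage 5 was 84.1% with 8-gene typing and 83.1% in thinned cells. Under 8-gene typing the log2FC turned positive for PAX7 (0.15), COL1A2 (0.35), COL3A1 (1.205), COL11A1 (0.80), SPARC (0.27), ITIH5 (0.43), PTN (1.66), SFRP1 (3.09) and PAX3 (0.10), where most SCs were typed as FAPs. Without a filter the median over all genes of the interaction was -0.20, against -0.07. That typing also ended 29 calls of named genes and the 6-gene typing 11. The smallest sums were the FAPs of donor 6 (885831 UMIs in 31 cells) for FAPs against SCs and the SCs of donor 2 (770830 UMIs in 51 cells) for the interaction.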
